A study of Drosophila melanogaster with 2 samples.

Results

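The nuclear genes for the 5 enzyme complexes of oxidative phosphorylation were examined in Drosophila melanogaster larvae that expressed GFP-tagged dASF/SF2. Members were the probes whose single current gene symbol starts with ND- (complex I), Sdh (complex II), UQCR- (complex III), COX (complex IV) or ATPsyn (complex V), together with RFeSP and Cyt-c1 of complex III. The rule used names alone and no measured value. It found 83 of the 15744 probes of the array, for 76 of 11865 genes: 33 genes of complex I, 7 of complex II, 7 of complex III, 14 of complex IV and 15 of complex V. In 20 of these genes the symbol ends in L, or in L and a digit, which marks a second copy of a subunit gene. The other 56 are called main copies here. ND-MNLL, whose final letter belongs to the subunit's own name, was counted among them. In the reference 90 nuclear genes carry such symbols, and the 14 that are not among the 76 were not analysed here: COX7AL2, COX7CL, ND-23, ND-24, ND-30, ND-49, ND-49L, ND-B15, ND-MWFE, SdhA, UQCR-11, UQCR-6.4L, UQCR-C1 and UQCR-C2. The 13 subunits encoded in mitochondrial DNA were not analysed either, since 0 of them had a probe under a single symbol.

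Oxidative phosphorylation passes electrons from NADH through complex I, or from succinate through complex II, to complex III and then, by way of cytochrome c, to complex IV, where oxygen is reduced. Complexes I, III and IV pump protons out of the mitochondrial matrix, and complex V, the ATP synthase, makes ATP as the protons return. Most subunits are encoded in the nucleus. In Drosophila many of these genes have a duplicate elsewhere in the genome, and a number of the duplicates are known for expression in the testis.

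Polyadenylated RNA of whole transgenic larvae was hybridised on 2 two-colour arrays. On both, larvae from a cross of GMR to GFP-dASF/SF2 were set against control larvae from a cross of GMR to GFP-NLS, which is GFP with a nuclear localisation signal. For array 1 the dASF/SF2 sample was labelled with Cy5 and the control with Cy3, and array 2 was the dye swap. Both crosses share a GFP tag and the GMR driver, whose enhancer works in eye cells. Most larval tissue is not eye tissue, and where the transgenes were expressed was not measured here. The labels give no larval stage, sex, number of animals or strain background, and do not say whether the arrays used separate RNA extracts. In whole larvae, fewer cells of a type and less RNA per cell cannot be told apart.

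The deposited value was 1 log ratio per probe and array, with neither the log base nor the numerator given in the sources used here. Values were read as Cy5 over Cy3 and array 2 was turned, so that positive and negative sides separate the genotypes without settling which of them is higher. The other reading, in which both columns already run by genotype, changes the sign of array 2, and is given beside the main counts and medians. Each array was centred on the median of its named probes, and units below are those of the deposited log scale. Precision is limited by there being 2 arrays. The spread behind a p-value here is the difference between the pair of arrays, possibly technical, moderated by limma towards all probes tested. After turning, that moderation had 6.889 prior against 1 residual degree of freedom. Over the 9813 named probes with a value on both arrays, the turned arrays had a Pearson correlation of 0.081. By genotype it was -0.081, and the probes are not independent replicates. Of the tissue lists, muscle markers lay on the positive side on both arrays (medians 0.36 and 0.197, 15 genes) and midgut proteases on the negative side (-0.523 and -0.364, 18 genes). Fat body markers had medians of -0.061 and -0.118 over 4 genes, and testis markers 0.094 and -0.0035 over 12 genes. Read by genotype, the medians of the array means were 0.0255 for muscle, -0.0547 for midgut, 0.0122 for fat body and 0.073 for testis markers.

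No member probe was called. Of the 83 member probes, 71 (65 genes) had a value on both arrays, 10 on array 2 alone and 2 on neither. By limma, 0 of the 71 passed a Benjamini-Hochberg adjusted p of 0.05, against a background of 0.00% of the 9813 probes tested. The lowest adjusted p of a member by limma was 0.718, for UQCR-11L. At an unadjusted p under 0.05 limma found 0 of the 71 member probes, against 7.92% of all probes. With the values read as running by genotype, limma called 0 members, with a lowest adjusted p of 0.996, and 0 members had an unadjusted p under 0.05 against 3.90% of all probes. An exact sign-flip test of a single value over 2 arrays cannot give a two-sided p below 0.5.

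The intervals show what size of difference these arrays could have missed. The 95% interval of a member's mean, which rests on the moderated spread, had a median width of 0.242 to either side. For 70 of the 71 member probes it lay within 1.5-fold of no difference on both sides if the log base is 2, while on base 10 the same widths are larger folds, and the exception was UQCR-11L (-0.801 to 0.0491). The means of the member probes ran from -0.376 to 0.176. A share of 87.3% of them lay within 0.1 of the median, against 61.5% of all probes.

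**Figure D1:**
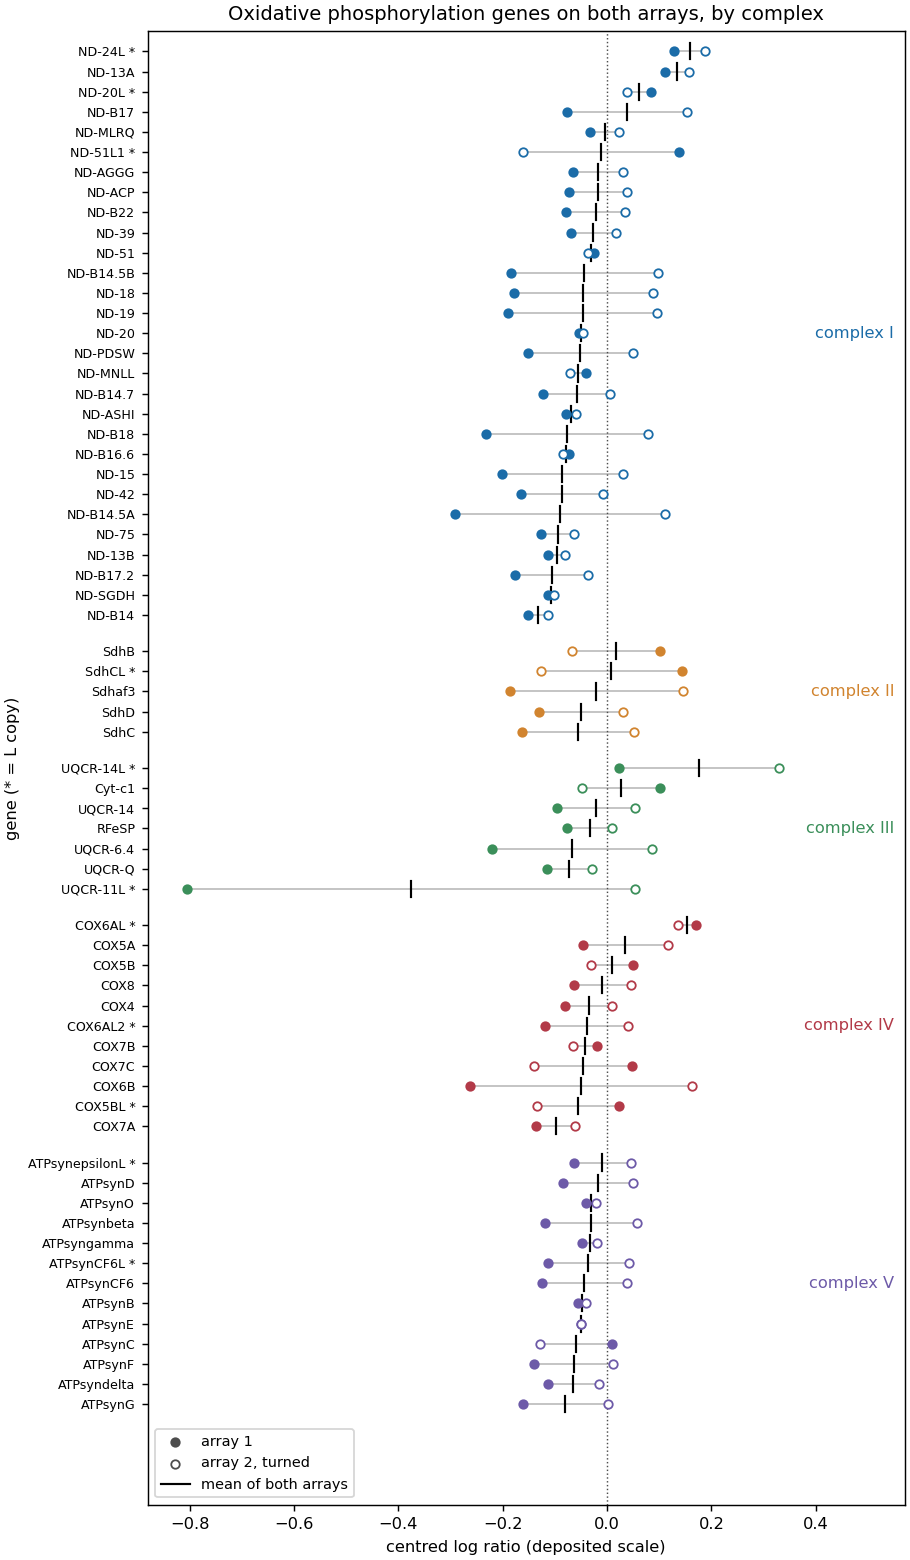
Centred log ratio of each of the 65 member genes on array 1 (filled points) and on array 2 after turning (open points), grouped by complex, with a bar at the mean and an asterisk at the L copies. Most filled points lie left of 0 while the open points lie on both sides, and UQCR-11L reaches -0.805 on array 1.

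The main copies lay close together and slightly on the negative side of array 1, while array 2 placed them around its median. The median main copy stood at -0.0905 on array 1 and 0.0095 on array 2 after turning, and at -0.0477 for the mean of both arrays (54 genes). All named genes had corresponding medians of -0.002, 0.008 and 0.002. On array 1, 48 of the 54 main copies were negative, a share of 88.9% against a background of 50.3% of all genes, and 26 of them lay at least 0.1 below the median. That is 48.1%, against 28.3% of all genes. On array 2 after turning, 30 of the 54 were positive, which is 55.6% against 52.2% of all genes. The interquartile range of the main copies was 0.101 on array 1 and 0.099 on array 2, against 0.253 and 0.186 over all genes.

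The share of members negative on both arrays was only slightly above that of all genes after turning, and further above it by genotype. The share positive on both was below that of all genes under either reading. The readings are not independent, since both hold array 1, where 52 of the 65 member genes were negative (80%, background 50.3%). On array 2 after turning, 38 were positive (58.5%, background 52.2%). After turning, 19 of the 65 member genes were negative on both arrays (29.2%, background 23.5%) and 5 were positive on both (7.69%, background 25.5%). The remaining 41 had opposite signs (63.1%, against 50.4% of all genes). With the values read as running by genotype, 33 were negative on both arrays (50.8%, background 26.6%) and 8 positive on both (12.3%, background 23.9%). At least 0.1 from the median on the same side of both turned arrays were 5 of the 65 (7.69%, background 15.6%), namely ND-13A, ND-24L and COX6AL on the positive side and ND-B14 and ND-SGDH on the negative. By genotype they were also 5 (background 14.8%), but different genes, with ND-51L1 and SdhCL positive and COX6B, ND-B14.5A and Sdhaf3 negative. These shares describe the members and were not tested, and the 2 arrays are the only samples behind them. Across the 54 main copies the turned arrays had a correlation of -0.412, and across all 65 members of -0.187 (-0.202 without UQCR-11L), against 0.0675 over all genes. By genotype each of these correlations has the opposite sign. They are descriptions over genes that share the same 2 arrays.

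**Figure D2:**
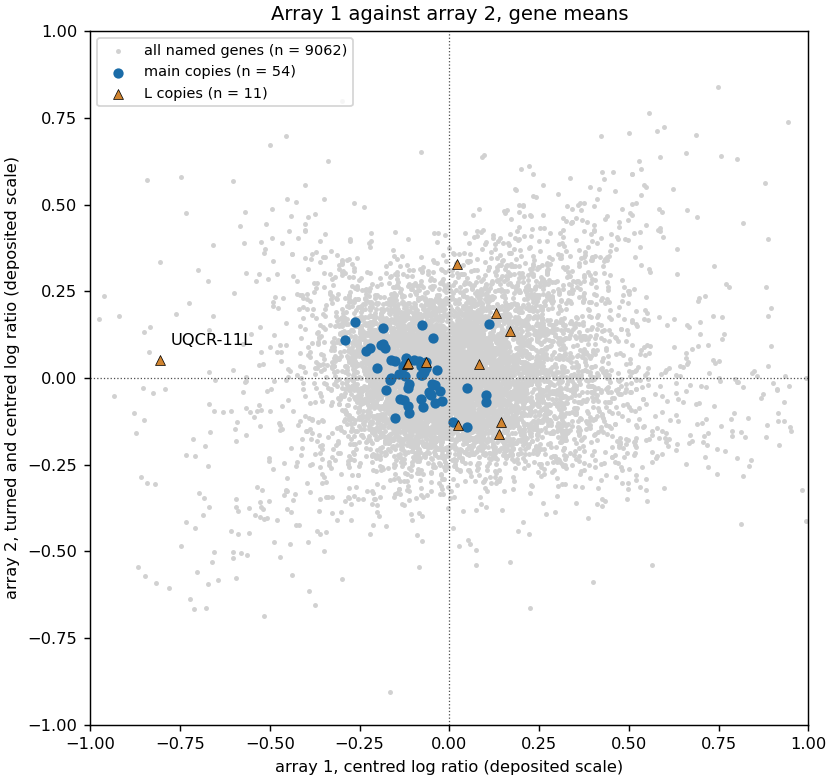
Centred log ratio on array 1 (horizontal) against the turned array 2 (vertical), as gene means, for all named genes (grey), main copies (circles) and L copies (triangles). Axes stop at 1 and leave out 53 grey genes. The main copies form a compact group left of 0, with 48 of 54 negative on array 1, and UQCR-11L stands apart at -0.805.

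The medians of all 5 complexes lay below 0 under both readings, which share array 1, and their order depended on the reading. The medians of the turned means were -0.05 for complex I (29 genes), -0.0205 for complex II (5 genes), -0.0335 for complex III (7 genes), -0.0395 for complex IV (11 genes) and -0.0435 for complex V (13 genes). With the L copies left out they were -0.0537, -0.035, -0.0335, -0.0387 and -0.0485, a spread of 0.0202 between the highest and the lowest. By genotype the main copy medians were -0.052 for complex I, -0.0938 for complex II, -0.0435 for complex III, -0.0413 for complex IV and -0.0485 for complex V. Their spread was then 0.0525, with complex II, which has 4 main copies, the lowest. Whether the complexes differ from each other was not tested. On array 1 alone the main copy medians were -0.1135 for complex I, -0.1465 for complex II, -0.097 for complex III, -0.055 for complex IV and -0.084 for complex V. On array 2 after turning they were 0.02, 0.041, 0.009, -0.01 and -0.016.

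**Figure D3:**
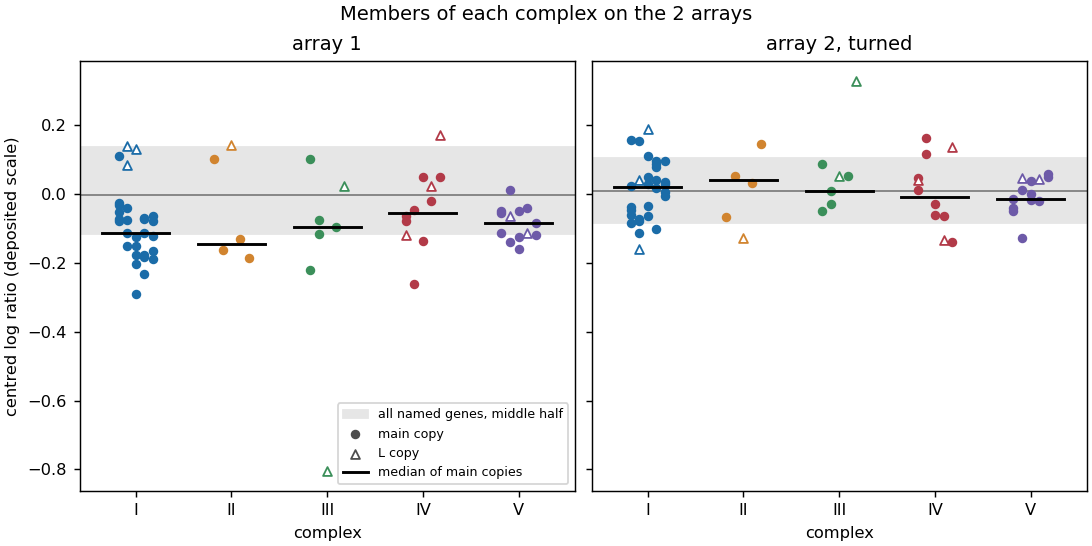
Centred log ratios of the member genes of complexes I to V on array 1 (left) and on the turned array 2 (right), with a bar at the median of the main copies and a grey band at the interquartile range of all named genes. Main copy medians run from -0.1465 to -0.055 on array 1 and from -0.016 to 0.041 on array 2.

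Complex I takes electrons from NADH onto a flavin and passes them along iron-sulfur clusters to ubiquinone. Of the subunits that carry these redox groups, ND-75, ND-51 and ND-20 were measured on both arrays, and all 3 were slightly negative on both. ND-75 had -0.126 on array 1 and -0.064 on array 2 (mean -0.095 ± 0.0438, SD, n = 2). ND-51, the flavin-binding subunit, had -0.026 and -0.037, and ND-20 had -0.053 and -0.047. The background for negative on both arrays is the 23.5% of all genes given above, and by genotype 0 of the 3 were negative on both, with means of -0.031, 0.0055 and -0.003. The arrays differed by at most 0.062 for these genes, and the 95% interval of each held 0, running from -0.333 to 0.143 for ND-75.

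The other 23 main copies of complex I are structural and accessory subunits, with medians of -0.114 on array 1 and 0.03 on array 2. Of all 26 main copies of the complex, 25 were negative on array 1 (96.2%, background 50.3%). The exception was ND-13A, the Drosophila counterpart of mammalian NDUFS6, which had 0.111 and 0.156 (mean 0.133 ± 0.0318) and had the highest mean of any main copy. The lowest were ND-B14, counterpart of NDUFA6, with -0.152 and -0.114 (mean -0.133 ± 0.0269), and ND-SGDH, counterpart of NDUFB5, with -0.113 and -0.101 (mean -0.107 ± 0.00849). Both arrays put these members on the same side, yet limma gave adjusted p = 0.95 for ND-13A and ND-B14 and 0.998 for ND-SGDH. Under the reading by genotype the means of the 3 shrink to -0.0225, -0.019 and -0.006.

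Some complex I genes pointed in opposite directions on the turned arrays. ND-B14.5A, counterpart of NDUFA7, had -0.291 on array 1 and 0.11 on array 2, the widest gap of a complex I gene. ND-B18 had -0.232 and 0.078, ND-19 -0.19 and 0.096, ND-B14.5B -0.184 and 0.097, and ND-18 -0.178 and 0.087. Their turned means ran from -0.0905 for ND-B14.5A to -0.0435 for ND-B14.5B, and by genotype from -0.2005 for ND-B14.5A to -0.1325 for ND-18. ND-B17 was measured by 2 probes that disagreed, 1 at 0.091 and 0.217 and the other at -0.243 and 0.088. ND-ACP, the mitochondrial acyl carrier protein that is also a subunit of the complex, had probe means of 0.0285 and -0.0635.

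Complex II, succinate dehydrogenase, also works in the citric acid cycle. Its iron-sulfur subunit SdhB had 0.101 on array 1 and -0.068 on array 2. The membrane anchor subunits ran the other way, with -0.163 and 0.051 for SdhC and -0.13 and 0.031 for SdhD. Sdhaf3, an assembly factor that the naming rule also takes in, had -0.186 and 0.145. All 5 measured genes of complex II changed side between the turned arrays (background 50.4% of all genes), and each mean was within 0.06 of 0.

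In complex III, RFeSP encodes the Rieske iron-sulfur protein and Cyt-c1 the cytochrome that hands electrons to cytochrome c. RFeSP had -0.076 and 0.009, and Cyt-c1 had 0.102 and -0.049. Among the small subunits, UQCR-Q had -0.116 and -0.029, UQCR-6.4 -0.221 and 0.086, and UQCR-14 -0.097 and 0.053. RFeSP and Cyt-c1 therefore lay on opposite sides on each array, and the 95% interval of each held 0 (for Cyt-c1, -0.218 to 0.271).

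All nuclear members of complex IV are small subunits around a catalytic core that mitochondrial DNA encodes. COX7A was the lowest, with -0.136 and -0.061 (mean -0.0985 ± 0.053), and COX5A the highest main copy, with -0.046 and 0.116 (mean 0.035 ± 0.115). COX6B had the widest gap of any main copy, -0.262 on array 1 and 0.162 on array 2. COX4 had -0.08 and 0.01, COX5B 0.049 and -0.03, COX7C 0.048 and -0.14, COX7B -0.02 and -0.065, and COX8 -0.064 and 0.045. The 8 main copies lay on both sides, and 2 of them, COX7A and COX7B, were negative on both turned arrays (25%, background 23.5%). By genotype 4 were negative on both (50%, background 26.6%).

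In complex V the means covered a narrow range below 0. Its catalytic subunit ATPsynbeta had -0.12 on array 1 and 0.057 on array 2. ATPsyngamma and ATPsyndelta, of the rotating stalk, had means of -0.0335 and -0.0645. ATPsynC, which builds the rotor ring in the membrane, had 0.01 and -0.128. ATPsynO and ATPsynB of the outer stalk had means of -0.0305 and -0.0485. ATPsynG, a small membrane subunit, was the lowest of the complex with -0.161 and 0.001 (mean -0.08 ± 0.115), and the highest was ATPsynepsilonL at -0.0095. All 13 means of complex V thus lay between -0.08 and -0.0095. On array 1, 12 of the 13 genes were negative (92.3%, background 50.3%).

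Genes of 2 probes show how far a value depends on the probe. In the 6 member genes with 2 probes measured on both arrays, the probe means differed by a median of 0.0793 and by at most 0.232, for ND-B17. The median over the 432 genes with 2 such probes in the whole table was 0.096.

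The L copies differed from the main copies first in whether they were measured. On array 1, 9 of the 20 L copy probes had no value (45.0%), against 3 of the 63 main copy probes (4.76%) and 25.2% of all named probes. Of the testis markers, 9 of 21 probes had none (42.9%), and of the muscle markers 6 of 25. For the midgut proteases it was 4 of 22 (18.2%), and for the fat body markers 0 of 4. On array 2, COX7AL alone among the L copies lacked a value, so 8 L copies were measured on array 2 alone: ND-51L2, ND-B14.5AL, SdhAL, SdhBL, COX4L, COX6CL, ATPsynGL and ATPsynbetaL. The filter behind missing values is not given in the sources used here, and the part of signal level in these gaps was not tested.

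**Figure D4:**
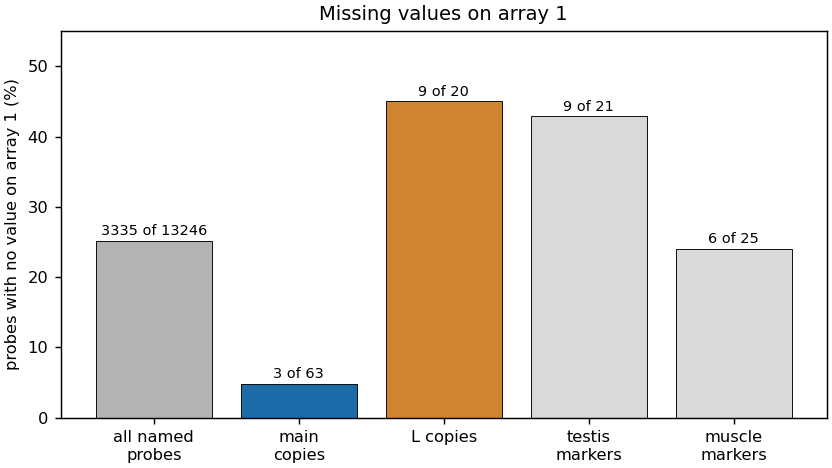
Percentage of probes with no value on array 1, among all named probes, main copies, L copies and the marker lists of testis and muscle, with counts above the bars. The L copies (45.0%) and testis markers (42.9%) stand above all named probes (25.2%), and the main copies (4.76%) below.

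The 8 L copies seen on array 2 alone leaned to the negative side after turning. SdhAL had -0.183, SdhBL -0.176, ATPsynbetaL -0.147, ND-B14.5AL -0.146, COX4L -0.122, ATPsynGL -0.093 and COX6CL, the lowest, -0.23. ND-51L2 was the exception at 0.048. Their median was -0.1465, and 7 of 8 were negative. All named probes measured on array 2 alone had a median of -0.06, and 62.4% of them were negative, so this lean was shared by probes outside the member set. No dye-swapped value exists for these 8 genes, and their sign turns if the column already runs by genotype.

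The 11 L copies measured on both arrays spread more widely than the main copies. They had a median of 0.023 on array 1 and 0.042 on the turned array 2, with an interquartile range of 0.222 on array 1. On both turned arrays, 4 of the 11 were positive (36.4%, background 25.5%) and 0 were negative (background 23.5%). By genotype 3 were positive on both (background 23.9%) and 4 negative (background 26.6%), so the one-sided count belongs to the turned reading. The 4 positive after turning were ND-24L with 0.129 and 0.188 (mean 0.159 ± 0.0417), COX6AL with 0.17 and 0.136 (mean 0.153 ± 0.024), ND-20L with 0.084 and 0.039 (mean 0.0615 ± 0.0318) and UQCR-14L with 0.022 and 0.329 (mean 0.175 ± 0.217). By limma the lowest adjusted p of these 4 was 0.898, for ND-24L. COX6AL2, a further copy related to the same subunit as COX6AL, had -0.119 and 0.04.

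UQCR-11L, a copy of the hinge protein gene of complex III, had the widest gap of all members. It stood at -0.805 on array 1 and 0.053 on array 2 (mean -0.376 ± 0.607, SD, n = 2), so array 1 alone sets its mean. On array 1, 1 of the 71 member probes and 1.28% of all named probes measured on both arrays lay at least 0.8 from the median. Without it, the median of complex III was -0.0277 over 6 genes, against -0.0335 with it.

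Pairs were matched by symbol, and 13 of the 20 L copies have a main copy of the same symbol stem with a probe. Counterparts under other symbols, such as levy, cype and sun, were not paired. For 6 pairs both copies were measured on both arrays, and for 12 on array 2. On array 1 the L copy lay above its main copy in 5 of 6 pairs, by a median of 0.128. In the same 6 pairs on array 2 after turning, it lay above in 3 and below in 3, with a median difference of -0.0505, which becomes 0.0505 by genotype. The median of the 6 pair means was 0.042 after turning and 0.0325 by genotype. For another 6 pairs the L copy was measured on array 2 alone, and in 5 of them it lay below its main copy after turning, by a median difference of -0.12. All named probes measured on array 2 alone also leaned to the negative side after turning, as given above. Over all 12 pairs on array 2, the L copy lay below in 8, with a median of -0.1065, and above in those 8 by genotype.

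Single pairs differed in direction and in how far they depended on the reading. SdhCL had 0.143 and -0.127 where SdhC had -0.163 and 0.051. With a difference of 0.306 it was the widest of the 6 pairs matched by symbol on array 1. ND-51L1 had 0.138 and -0.161 where ND-51 had -0.026 and -0.037. UQCR-14L lay above UQCR-14 on both arrays, by 0.119 and 0.276, and ND-20L above ND-20 by 0.137 and 0.086. COX5BL lay below COX5B on both, by differences of -0.026 and -0.105, and ATPsynCF6L matched ATPsynCF6 to within 0.011 on both arrays. On array 2, ND-B14.5AL lay -0.256 from ND-B14.5A and ATPsynbetaL -0.204 from ATPsynbeta. Of the pairs measured on both arrays, 4 of 6 kept their direction after turning, 3 with the L copy above and 1 with it below. By genotype the mean difference was -0.0785 for UQCR-14L, 0.0255 for ND-20L, 0.0395 for COX5BL, 0.0035 for ATPsynCF6L, 0.242 for SdhCL and 0.144 for ND-51L1, so UQCR-14L and COX5BL changed direction.

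**Figure D5:**
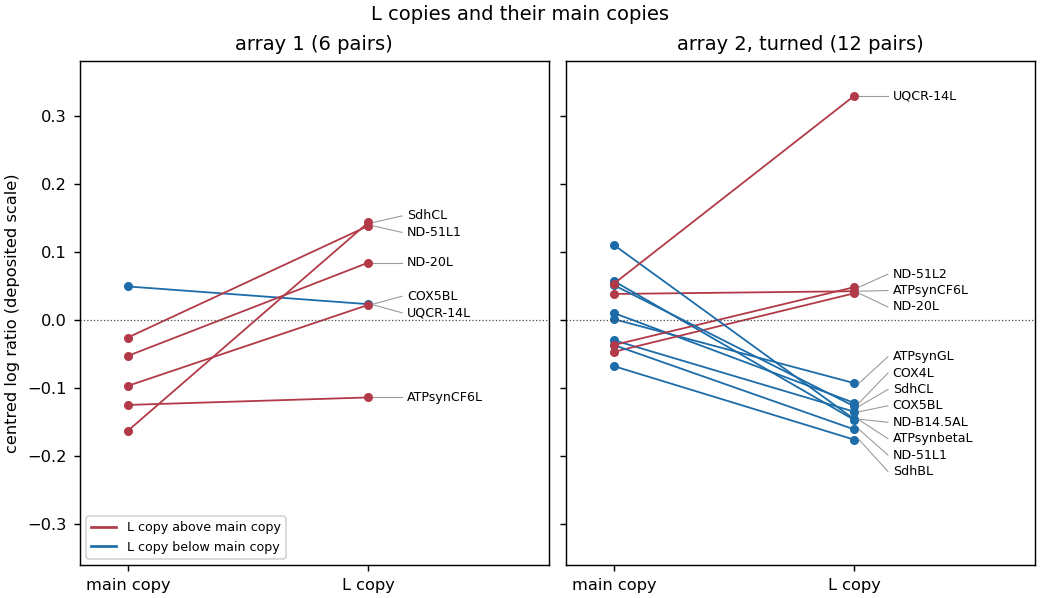
Centred log ratios of main copies (left end of each line) and the L copies matched to them by symbol (right end) on array 1 (6 pairs) and on the turned array 2 (12 pairs). Lines rise in 5 of 6 pairs on array 1 and fall in 8 of 12 on array 2. On array 2 they fall in 3 of the 6 pairs measured on both arrays. They also fall in 5 of the 6 pairs whose L copy was measured on array 2 alone.

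Position in the genome, which the rule did not use, was taken as the chromosome arm of the Release 6 plus ISO1 MT assembly. Of the main copies 11 of 56 lie on X, and of the L copies 1 of 20, SdhBL. The 11 main copies on X that were measured on both arrays were all negative on array 1 (median -0.113), and 6 were negative on both turned arrays (54.5%), against 5 by genotype. Of all named genes on X, 47.7% were negative on array 1, 21.9% on both turned arrays and 25.8% on both by genotype. The 43 main copies on autosomes had a median of -0.08 on array 1, with 37 negative. Of these 43, 13 were negative on both turned arrays (30.2%), against 24 by genotype. Of all named genes on autosomes, 50.9% were negative on array 1, 23.9% on both turned arrays and 26.8% on both by genotype. All named genes on X had a median of 0.009 on array 1 and those on autosomes -0.005. ND-20 and UQCR-14 lie on X and their L copies on 3R, while COX5B and COX5BL both lie on 2L.

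Subunits whose symbols the rule does not reach behaved like the main copies on array 1. The alpha subunit of ATP synthase, encoded by blw, had -0.184 and 0.038. Its epsilon subunit, encoded by sun, had -0.083 and 0.064, beside -0.064 and 0.045 for ATPsynepsilonL. The complex IV subunit 6A, encoded by levy, had -0.152 and 0.051, beside 0.17 and 0.136 for COX6AL and -0.119 and 0.04 for COX6AL2. Subunit 6C, encoded by cype, had -0.191 and 0.155, beside -0.23 on the turned array 2 alone for COX6CL. The complex III subunit encoded by ox had -0.052 and 0.225. All 5 genes were negative on array 1 and positive on the turned array 2, so by genotype all 5 were negative on both. Of all genes, 50.3% were negative on array 1 and 26.6% were negative on both by genotype. After turning, blw was the lowest mean (-0.073) and ox the highest (0.0865).

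Lists of other mitochondrial genes had medians on both sides of 0, and limma called 0 probes in each of these lists. Their counts over both turned arrays stand against 25.5% of all genes positive on both and 23.5% negative on both. Carriers of nucleotides and phosphate had a median of 0.07 (5 genes of 7 listed), with 3 positive and 1 negative on both arrays (1 and 0 by genotype). The phosphate carrier Mpcp1 was highest (0.157 and 0.324), the adenine nucleotide translocase Ant2 had 0.222 and 0.195, and porin, the channel of the outer membrane, was lowest (-0.079 and -0.006). Genes of pyruvate dehydrogenase and the citric acid cycle had a median of 0.0467 (10 of 15 listed), with 4 positive and 1 negative on both arrays (also 4 and 1 by genotype). The aconitase gene mAcon1 had 0.271 and 0.302, and ScsbetaG, a subunit of succinyl-CoA synthetase, -0.187 and -0.04.

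The smaller lists also differed in side. In mitochondrial dynamics and turnover (median 0.0615, 4 of 5 listed, 2 positive and 2 negative on both arrays, and 0 of either by genotype), the fusion gene Marf had 0.498 and 0.217 and the kinase gene Pink1 -0.131 and -0.036. Genes of mitochondrial DNA and its expression had a median of -0.0755 (3 of 11 listed, all negative on both arrays after turning and 0 by genotype), from PolG1 at -0.198 and -0.035 to mtSSB at -0.073 and -0.062. The assembly factors had a median of -0.034 (3 of 3 listed, 2 negative on both arrays, and 1 by genotype), from Scox at -0.064 and -0.067 to Surf1 at -0.023 and -0.014. Muscle, a tissue rich in mitochondria, gave marker medians on the opposite side of array 1 from the main copies, 0.36 against -0.0905, and the part of tissue mix in either was not tested.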

How the data were processed

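Each array compared polyadenylated RNA of dASF/SF2 and control larvae. The authors deposited 1 score per probe, a log ratio of the channels. Its log base, numerator, normalization, filter and scanner were not given in the sources used here. Missing cells numbered 4001 on array 1 and 1452 on array 2, with 7 cells coded -10000 among them. No other value column was left unused (0). By the platform annotation, 13147 probes have 1 symbol, 99 have several and 2498 have none. For all 83 member probes the current symbol came from the gene identifier.

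Unnamed features were left out, array 2 was turned, and arrays were centred on the medians of named probes, 0.006 and 0.013. Probes were tested in limma 3.58.1 (lmFit, eBayes; R 4.3.3), two-sided, adjusted over all 9813 probes and tested on simulated data. Gene values are means over probes. Members, lists and tests were chosen with earlier results of these data known, and no list was tested as a set. Genes were named if highest or lowest in a complex or list, an L copy or its main copy, a redox or catalytic subunit, at least 0.1 from 0 on the same side of both arrays, or among the 3 widest gaps between arrays; genes beyond this rule were chosen after their values were seen. The marker don was not matched to a current symbol. Alternatives covered direction, centring, features kept, probes per gene and single arrays.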

Additional observations from a re-analysis of the deposited data

How the results depend on the processing

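No member was called by limma under any of the 7 other settings tried, with lowest adjusted p of members from 0.475 to 0.999. Reading the values as running by genotype moved the member genes positive on both arrays from 5 to 8 and those negative on both from 19 to 33. On a single array, where no test is possible, 13 to 38 members were positive and 27 to 52 negative. The single-array medians ran from -0.078 to 0.023 for complex I, -0.13 to 0.031 for complex II, -0.097 to 0.053 for complex III, -0.046 to 0.01 for complex IV and -0.084 to 0.001 for complex V, and from -0.0505 to 0.128 for the difference of L copies from main copies. These ranges use array 2 after turning, and the sign of each median and of the pair difference then depends on the array. With array 2 not turned, its medians for complexes I to V were -0.023, -0.031, -0.053, -0.01 and -0.001, and the pair difference was 0.0505. Those signs are the same as on array 1. After turning, array 1 carries the negative medians, and the cause was not tested. The pair difference also went to -0.00275 with probes of a single array kept. Of the 29 named members, 12 moved by more than their SD between arrays in the reading by genotype and 3 under centring by blocks of the probe order. This SD grows with the gap between the turned arrays, so the count mostly picks out genes whose turned arrays lay close. ND-51L1, for example, counted as unmoved though its mean went from -0.0115 to 0.1495 by genotype. The other 17 are thus not shown to be independent of the reading. Most other settings leave single-probe genes nearly as they are by construction. Folds depend on the log base: the main copy median is 1.03-fold on base 2 and 1.12-fold on base 10. Each value sets both genotypes against each other within an array, so that pairing was already in the ratio. No further pairing was possible because there is a single group of 2 arrays.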

Other observations

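COX8 of complex IV and ATPsynepsilonL of complex V, named after their values were seen, were listed with the same deposited values to 3 decimals on both arrays, -0.058 on array 1 and -0.032 on array 2. Of the main copies, ND-B12 and ND-B8 of complex I were measured on array 2 alone, at 0.166 and -0.062 after turning.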
